A study of Mus musculus with 16 samples.

Results

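The Fos, Jun and ATF genes of the AP-1 transcription factor, together with the immediate early genes Egr1 and Ier3, were followed in colonic mucosa of mice with and without the gene Mcc (mutated in colorectal cancers), fed sulindac or a control diet. The members were fixed by name (Fos, Fosb, Fosl1, Fosl2, Jun, Junb, Jund, Atf3, Egr1 and Ier3), with the row of highest mean taken for each gene. Of these 10 genes, 9 had a row of their own among the 30748 genes tested. The only row for Junb, a Jun family gene, also lists the peroxiredoxin gene Prdx2, so no value is given for it.

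The samples were 16 Affymetrix arrays of total RNA, 1 per sample, from the colonic mucosal layer of male C57BL/6J mice that all carried a homozygous loxP-flanked Mcc allele (Mccf/f, from B6.Cg-Mcc<tm1Maija>/Ausb). Feeding began at 6 weeks of age and lasted 10 weeks. The knockout (KO) mice, VILcreMccf/f or MccΔIEC, also carried Villin-cre, here the line B6.SJL-Tg(vil-cre)997Gum/J, whose promoter is active in intestinal epithelium, so the other cells of the mucosa keep Mcc. Their siblings without Cre, Mccf/f, are called wild type (WT) here although both alleles are floxed. Sulindac, a non-steroidal anti-inflammatory drug that inhibits the cyclooxygenases, was given at 320 ppm in the feed, and mucosa of these mice was taken only from inflamed areas of the proximal colon, called lesions here. The groups were KO lesions (n = 4), KO control diet (n = 3), WT lesions (n = 3) and WT control diet (n = 6, matching normal tissue as in KO). No array holds uninflamed mucosa of a sulindac-fed mouse, so drug and inflammation cannot be told apart. The labels do not state that each array came from a different mouse, so the p-values measure the spread between these samples, which may be technical.

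AP-1 is a dimer of basic leucine zipper proteins, in which a Fos family protein joins a Jun family protein, or Jun proteins pair with each other or with ATF proteins. Most members are immediate early genes, transcribed within minutes of growth factor, cytokine or stress signals without new protein synthesis, through MAP kinases and the factors SRF, ELK and CREB bound at their promoters. In the gut, AP-1 is known for its part in epithelial repair, in inflammation and in intestinal tumours of mice.

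Promoter sequences of 4 members that later results turn on are shown, to set out the letters known to bind signal-driven factors in front of them: Fos and Jun as the founding genes of the dimer, Atf3 as the stress-induced ATF member, and Ier3 as the one with the largest difference among the 9 measured genes. They are RefSeq windows of build GRCm38.p6, from 250 bases before to 50 bases after the annotated start, 5′ to 3′ on the gene's strand. Fos lies at chr12:85473640-85473939 (plus strand), Jun at chr4:95052173-95052472 (minus strand), Atf3 at chr1:191183284-191183583 (minus strand) and Ier3 at chr17:35821463-35821762 (plus strand). Capitals mark letters found by exact match on either strand: TGACGT (the cAMP response element core, read as ACGTCA on the other strand) in Fos and Atf3, TATAAA (the TATA box) in Fos, TGACATCA (a variant bound by Jun and ATF proteins) in Jun, and GGAATTTCC (a form of the NF-kB site) in Ier3.
Fos: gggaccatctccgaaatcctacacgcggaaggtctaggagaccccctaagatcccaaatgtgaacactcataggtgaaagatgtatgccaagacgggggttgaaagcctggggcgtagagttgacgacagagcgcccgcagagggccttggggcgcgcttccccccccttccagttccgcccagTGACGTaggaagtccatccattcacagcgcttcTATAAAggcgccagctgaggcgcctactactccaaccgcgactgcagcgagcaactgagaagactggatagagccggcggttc
Jun: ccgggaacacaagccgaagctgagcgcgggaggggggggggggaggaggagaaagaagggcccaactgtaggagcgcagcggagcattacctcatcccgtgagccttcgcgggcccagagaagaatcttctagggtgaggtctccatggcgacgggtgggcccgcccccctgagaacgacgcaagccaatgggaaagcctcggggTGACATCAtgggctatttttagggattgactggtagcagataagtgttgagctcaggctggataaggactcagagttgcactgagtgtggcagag
Atf3: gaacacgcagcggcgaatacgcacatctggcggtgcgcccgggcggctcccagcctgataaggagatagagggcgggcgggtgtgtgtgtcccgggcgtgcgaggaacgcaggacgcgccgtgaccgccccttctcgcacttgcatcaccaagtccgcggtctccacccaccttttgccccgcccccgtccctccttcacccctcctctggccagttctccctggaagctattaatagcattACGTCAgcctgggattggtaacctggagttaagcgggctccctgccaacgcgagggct
Ier3: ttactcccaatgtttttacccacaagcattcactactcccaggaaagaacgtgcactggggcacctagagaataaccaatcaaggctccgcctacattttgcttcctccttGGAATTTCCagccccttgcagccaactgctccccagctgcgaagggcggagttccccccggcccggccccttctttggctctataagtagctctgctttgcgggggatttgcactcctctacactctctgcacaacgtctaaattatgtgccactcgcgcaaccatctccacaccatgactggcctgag

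The TGACGT core began 66 bases before the annotated start in Fos and 8 bases before it in Atf3, where it is read on the other strand. TGACATCA began 45 bases before the start in Jun, and GGAATTTCC 139 bases before it in Ier3. Among all 32851 windows of the same length, on both strands, TGACGT was present in 7.51%, TGACATCA in 3.62%, TATAAA in 13.6% and GGAATTTCC in 0.317%. The motifs searched do not overlap each other in these 4 windows, and they were chosen with the sequences in view. The consensus AP-1 letters TGACTCA, present in 5.2% of all windows, were not in the windows of the 8 members that RefSeq matched. A match is only a description of the letters, and binding was not measured.

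Mcc itself was read first, as the check of the genotype labels. Its log2 level (RMA, the deposited scale of every level below) lay between 6.39 and 6.48 in KO lesions, between 6.43 and 6.71 in KO controls, between 7.09 and 7.40 in WT lesions and between 7.06 and 7.35 in WT controls, so every KO array was below every WT array. The labelled tissue was also borne out by its markers, since the mean of 7 epithelial markers (Epcam, Cdh1, keratins, Vil1, Cldn7) was between 11.26 and 11.80 in all 16 arrays, far above the array medians of 4.90 to 5.05. The numbers in the sample descriptions form a lower and a higher series. All 7 lesion arrays have lower numbers, all 3 KO controls higher ones, and the WT controls 3 of each, so the KO lesion comparison crosses the series. For the members, KO differences with the series as a covariate are given below. The counts of the gene lists and cell markers do not account for the series. In bulk mucosa, fewer cells of a type and less RNA per cell cannot be told apart.

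In KO lesions, 6 of the 9 measured genes rose against KO controls: Fosb, Fosl1, Jun, Atf3, Egr1 and Ier3 (limma, Benjamini-Hochberg adjusted p under 0.05 over all genes). None fell. By the same rule 8.96% of all genes tested rose and 12.1% fell. The median log2 difference over the 9 genes was 1.01, against 0.01 over all genes. In WT lesions 3 of the 9 rose against WT controls, Fosl1, Egr1 and Ier3, where 6.96% of all genes rose and 8.35% fell, and the median over the 9 genes was 0.59, against -0.06 over all genes. The means of the 9 genes all lay above the array medians in every group.

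Fos, the founding member, whose protein dimerises with Jun, was the most variable of the 9. Its level was 10.77, 10.10, 10.02 and 10.00 in KO lesions, against 9.57, 9.76 and 8.30 in KO controls. In WT lesions it was 9.84, 9.70 and 9.54, against a lowest of 7.76, a median of 9.22 and a highest of 9.62 in WT controls. All KO lesions were thus above all KO controls, while the lowest WT lesion lay below the highest WT controls. The log2 difference was 1.01 ± 0.40 (SE) in KO, with adjusted p = 0.0894, and 0.64 ± 0.37 in WT, with adjusted p = 0.285, so neither passed. Single low controls and the number series moved these values: in KO it was 0.56 (adjusted p = 0.379) without KO control 3 and 1.54 (adjusted p = 0.140) with the series as a covariate, and in WT 0.38 (adjusted p = 0.452) without WT control 1. The SD around group means was 0.588 for Fos, and 1.21% of all genes had a larger one. On the control diet alone the 9 arrays spanned 7.76 to 9.76, and the lowest values came from WT control 1 and KO control 3.

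Fosb, whose protein is a close relative of Fos, was 8.29, 6.73, 7.31 and 6.64 in KO lesions, against 6.35, 6.35 and 5.68 in KO controls. In WT lesions it was 6.63, 6.60 and 6.26, against a lowest of 5.89, a median of 6.18 and a highest of 6.37 in WT controls. KO lesion 1 stood above the others, and the WT groups overlapped through WT lesion 3. Fosb rose in KO lesions by 1.12 ± 0.30 (2.17-fold, adjusted p = 0.0138), while in WT the difference was 0.35 ± 0.28 (adjusted p = 0.444). Without KO lesion 1 the KO difference was 0.77 (adjusted p = 0.0170), and with array weights 0.71. The call ended without KO control 3, the lowest control (0.89, adjusted p = 0.0686). It also ended when the series of the numbers entered as a covariate (1.21, adjusted p = 0.138).

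Fosl1 encodes Fra-1, a Fos relative that AP-1 itself induces and that accumulates in migrating and invading epithelial cells. Its levels were 7.82, 7.29, 7.38 and 6.83 in KO lesions, against 6.76, 6.45 and 6.20 in KO controls, and 7.10, 6.85 and 7.05 in WT lesions, against a lowest of 6.16, a median of 6.38 and a highest of 6.75 in WT controls. No lesion array overlapped the controls of its genotype. Fosl1 rose 1.81-fold in KO lesions (log2 0.86 ± 0.19, adjusted p = 0.00376) and 1.51-fold in WT lesions (0.60 ± 0.17, adjusted p = 0.0302). The WT call ended when WT control 2, 5 or 6 or any 1 WT lesion was left out, with differences between 0.55 and 0.67 over all such omissions and adjusted p up to 0.111. Fosl2, which encodes Fra-2, did not pass in either genotype: it ranged from 8.44 to 8.86 in KO lesions, from 8.46 to 8.81 in KO controls, from 8.36 to 8.73 in WT lesions and from 8.47 to 8.90 in WT controls. Its difference was 0.09 in KO (95% interval -0.19 to 0.36) and -0.12 in WT (95% interval -0.38 to 0.13).

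Jun, the founding Jun family gene, whose product is activated by the JNK kinases, was 10.06, 10.04, 9.76 and 10.15 in KO lesions, against 9.25, 9.14 and 9.33 in KO controls. In WT lesions it was 9.51, 9.52 and 9.37, against a lowest of 9.13, a median of 9.34 and a highest of 9.53 in WT controls. The KO lesions stood above every other array, while the WT lesions lay inside the range of the WT controls. Jun rose 1.70-fold in KO lesions (0.76 ± 0.10, adjusted p = 7.41e-05) and its WT difference was 0.12 ± 0.10 (95% interval -0.08 to 0.33, adjusted p = 0.429). With the number series as a covariate the KO difference was 0.53 (adjusted p = 0.0204). The Jun family gene Jund, which is expressed in resting cells and often opposes proliferation, ranged from 8.70 to 9.26 in KO lesions, from 8.51 to 8.98 in KO controls, from 8.47 to 8.86 in WT lesions and from 8.48 to 9.11 in WT controls. All 4 groups overlapped, and the differences of 0.12 in KO (95% interval -0.24 to 0.47) and -0.20 in WT (95% interval -0.53 to 0.12) did not pass. KO lesion 1 was at 9.26 for Jund and the other KO lesions all at 8.70.

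Atf3, a stress-induced member of the ATF family that can repress or activate in dimers with Jun proteins, was 9.90, 9.17, 8.99 and 9.14 in KO lesions, against 8.13, 7.77 and 7.67 in KO controls. In WT lesions it was 8.85, 8.71 and 8.03, against a lowest of 7.32, a median of 7.85 and a highest of 8.48 in WT controls. The KO groups were fully apart, and in WT the third lesion lay below the highest control. Atf3 rose 2.72-fold in KO lesions (1.44 ± 0.26, adjusted p = 8.10e-04). In WT the difference of 0.67 ± 0.24 did not pass (adjusted p = 0.0772). Within the lower number series, WT lesions against the 3 WT controls of that series differed by 0.86 (adjusted p = 0.0484), and without WT lesion 3 the difference was 0.92 (adjusted p = 0.0333). Without WT lesion 1 it was 0.50 (adjusted p = 0.248). Over 19 other settings it ran from 0.48 to 0.92 with adjusted p from 0.0283 to 0.25, and it passed in 4 of them.

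Egr1, a zinc finger factor induced through SRF and ELK by the same MAP kinases as Fos, was 8.94, 8.39, 8.12 and 8.13 in KO lesions, against 7.56, 7.27 and 7.11 in KO controls. In WT lesions it was 8.01, 7.81 and 7.62, against a lowest of 6.94, a median of 7.15 and a highest of 7.63 in WT controls. Only the highest WT control, WT control 4, reached the range of the WT lesions. Egr1 rose 2.12-fold in KO lesions (1.08 ± 0.20, adjusted p = 8.76e-04) and 1.50-fold in WT lesions (0.59 ± 0.18, adjusted p = 0.0404). The WT call ended when WT control 1, 2, 5 or 6 or any 1 WT lesion was left out (adjusted p from 0.0562 to 0.15). It also ended with the series as a covariate (0.57, adjusted p = 0.104).

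Ier3, an immediate early gene known as a target of NF-kB and as a regulator of apoptosis and of ERK signalling, had the largest differences among the 9. Its levels were 8.98, 9.13, 8.37 and 8.38 in KO lesions, against 6.42, 6.22 and 6.06 in KO controls. In WT lesions they were 8.11, 7.67 and 7.68, against a lowest of 5.96, a median of 6.28 and a highest of 6.43 in WT controls. Every lesion array lay more than a log2 unit above every control array. Ier3 rose 5.61-fold in KO lesions (2.49 ± 0.18, adjusted p = 2.54e-07) and 2.98-fold in WT lesions (1.58 ± 0.17, adjusted p = 1.51e-05). Of all genes tested, 0.42% had a larger rise in KO and 0.924% in WT.

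**Figure D1:**
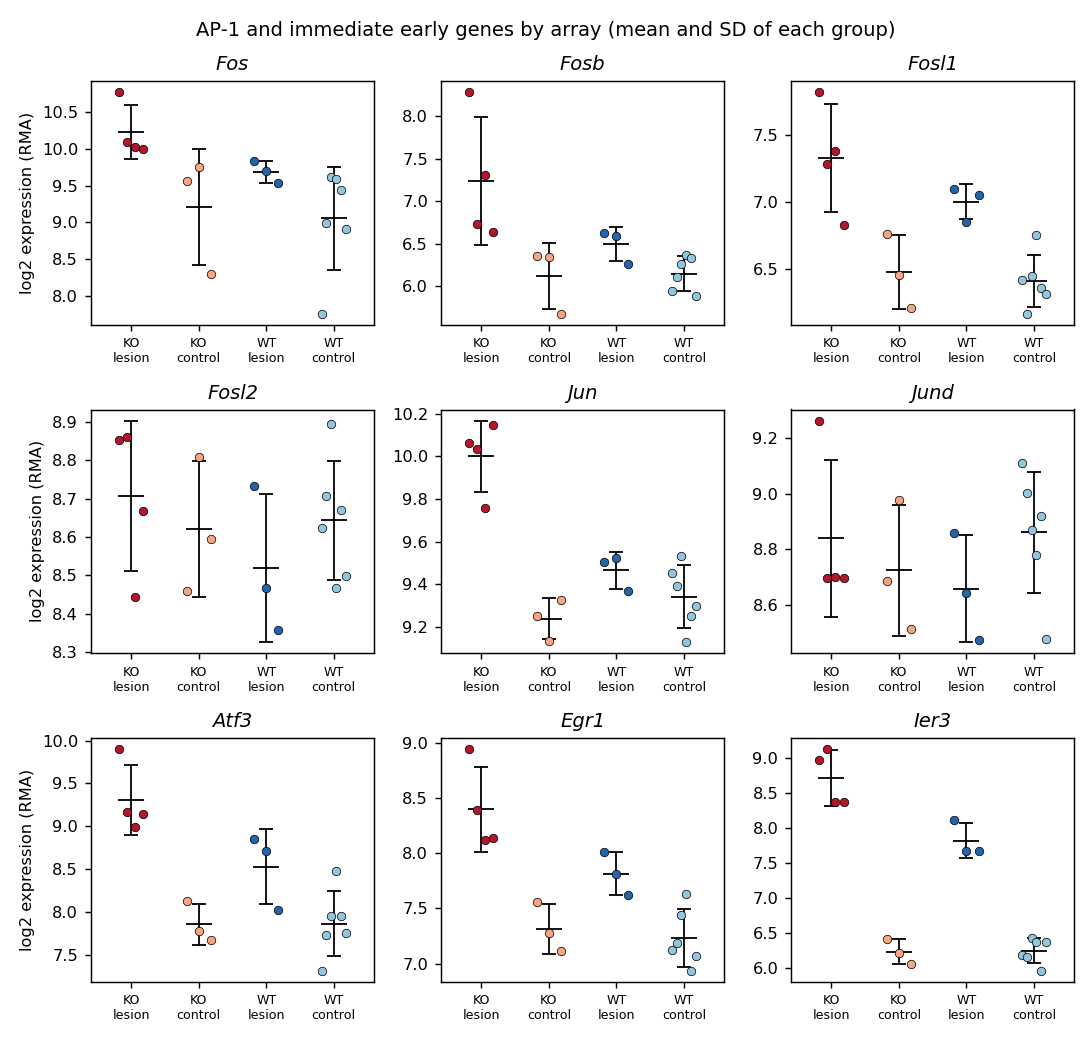
Log2 RMA level (vertical axis, a separate scale for each gene) of the 9 measured genes in every array, with KO lesions, KO controls, WT lesions and WT controls from left to right; points are arrays, and bars are the group mean and SD. The KO lesions lie above the KO controls for all but Fosl2 and Jund, and Ier3 lesions lie apart from controls in both genotypes.

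Arrays of the 2 groups did not overlap, with lesions above, for 7 of the 9 genes in KO (Fos, Fosb, Fosl1, Jun, Atf3, Egr1 and Ier3), where 12.6% of all genes did the same, and for 2 in WT (Fosl1 and Ier3), where 8.13% did. With the number series as a covariate, 5 of the 9 genes passed in KO, all of the 6 but Fosb. By that fit 1383 of all 30748 genes rose and 1124 fell. Fosl1 (0.99, adjusted p = 0.0436) and Egr1 (1.04, adjusted p = 0.0438) were then close to the threshold. Atf3 differed by 1.84 (adjusted p = 0.00583) and Ier3 by 2.47 (adjusted p = 1.09e-04). Among the differences between diets, KO and WT were fitted against separate control arrays.

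**Figure D2:**
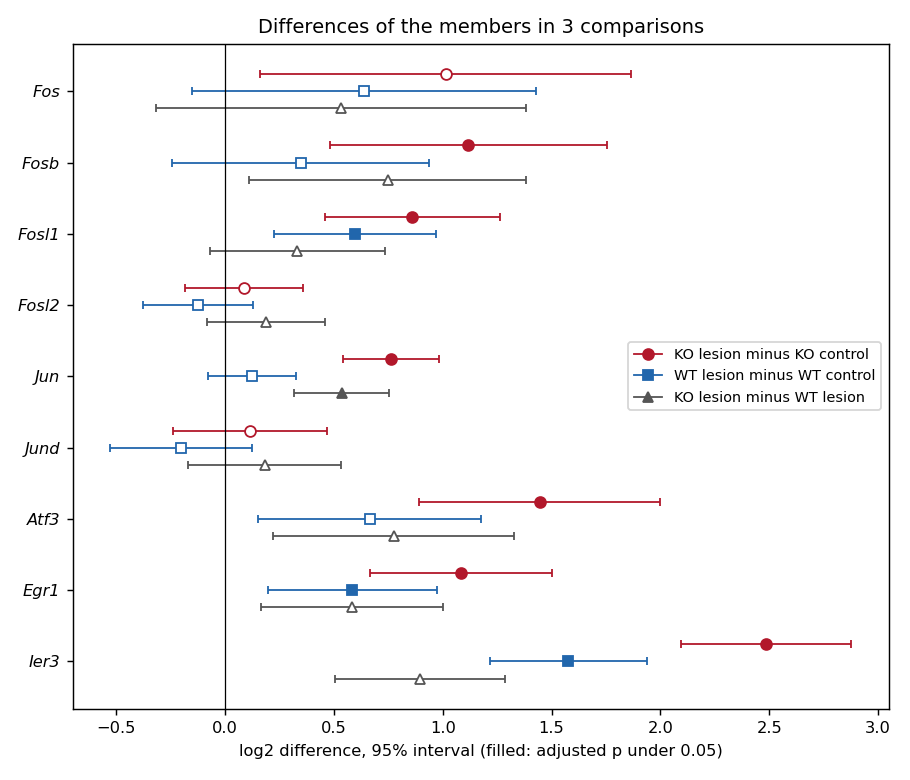
Log2 differences with 95% intervals (horizontal axis) of the 9 genes for KO lesions minus KO controls, WT lesions minus WT controls, and KO lesions minus WT lesions; filled marks have an adjusted p under 0.05. Ier3 has the largest differences, and Jun is the only filled mark between the lesions.

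Between genotypes within lesions, Jun alone among the 9 genes passed, with 1.45-fold more in KO lesions than in WT lesions (0.54 ± 0.10, adjusted p = 0.0457), where 0.247% of all genes were higher and 0.0585% lower in KO by this rule. The lowest KO lesion was 9.76 and the highest WT lesion 9.52. This call was close to the threshold. No label states a pairing of the lesion arrays, and same replicate numbers were taken as pairs only from correlations in these data. With the replicate numbers as a block the Jun difference was 0.49 (adjusted p = 0.25) and no member passed. That fit held only these 2 groups and replicates 1 to 3, without KO lesion 4, which had the highest Jun level. Leaving out KO lesion 4 with no block also gave 0.49 (adjusted p = 0.0984). Over 16 other settings the Jun difference stayed between 0.49 and 0.62, with adjusted p from 0.00250 to 0.446, and it passed in 6 of them. It was lost on leaving out any single lesion array other than KO lesion 3.

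Ier3 was 1.86-fold higher in KO lesions than in WT lesions (0.90 ± 0.18) but did not pass (adjusted p = 0.0567), although all KO lesions exceeded all WT lesions. Atf3 differed by 0.77 ± 0.26 (adjusted p = 0.229), Fosb by 0.75 ± 0.30 (adjusted p = 0.302), Egr1 by 0.58 ± 0.20 (adjusted p = 0.232) and Fos by 0.53 ± 0.40 (adjusted p = 0.574). In all of these genes, and in Jun, the lowest KO lesion lay above the highest WT lesion, 6 of the 9 members in all, where 5.49% of all genes did so. The median over the 9 genes was 0.54, against 0.04 over all genes. Without KO lesion 1 the member median was 0.40 and no member passed.

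Neutrophil markers moved in the same direction between these groups. The mean of 10 markers was between 7.39 and 8.39 in KO lesions and between 6.58 and 7.17 in WT lesions, against 4.84 to 5.04 in KO controls and 4.84 to 5.08 in WT controls, and 3 of the 10 (Csf3r, Cxcr2 and Retnlg) were higher in KO lesions than in WT lesions by the adjusted test. In controls the defining markers S100a8, S100a9, Retnlg and Ngp were below the lowest array median. Of 10 macrophage markers none differed between the lesions, with means of 7.27 to 7.54 in KO and 7.15 to 7.33 in WT. Among 5 enteric neuron and glia markers, Ret was higher in KO lesions (mean 7.77, against 6.84 in WT lesions, adjusted p = 0.0494), and the list means were 5.67 to 5.94 in KO lesions and 5.40 to 5.63 in WT lesions, with Elavl4 and S100b below the lowest array median in both. No marker of the other 8 lists differed between the lesions by the test. The part of these cells in the Jun difference was not tested.

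On the control diet no member passed between KO and WT (adjusted p = 0.9995 for each of the 9 in limma). None passed at an unadjusted p under 0.05 either, a threshold met by 647 genes, only 2.1% of all genes tested. After adjustment 0% of all genes passed. Mcc itself did not pass, with means of 6.57 in KO controls and 7.16 in WT controls and no overlap. The test thus missed a known difference, and the lack of calls does not show that the members were equal. The widest interval was that of Fos, whose difference was 0.16 (95% interval -0.63 to 0.94), and the narrowest that of Jun, -0.10 (95% interval -0.31 to 0.10). For Ier3 the difference was -0.01 (95% interval -0.38 to 0.35).

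Whether the lesion response itself differed between genotypes was tested as an interaction. No member passed (0.00325% of all genes, 1 gene, did). The interaction was positive for each of the 9, with a median of 0.50 against 0.06 over all genes, and 3 had an unadjusted p under 0.05, as did 11.1% of all genes. These were Ier3 at 0.91 ± 0.25 (adjusted p = 0.395), Jun at 0.64 ± 0.14 (adjusted p = 0.315) and Atf3 at 0.78 ± 0.35 (adjusted p = 0.441). The interaction uses the same arrays as the other comparisons, so it is no separate evidence. Without KO lesion 3, Jun (adjusted p = 0.0150) and Ier3 (adjusted p = 0.0493) passed. In that fit 510 of the 30748 genes passed, against 1 with all arrays, so the change was not particular to these members.

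**Figure D3:**
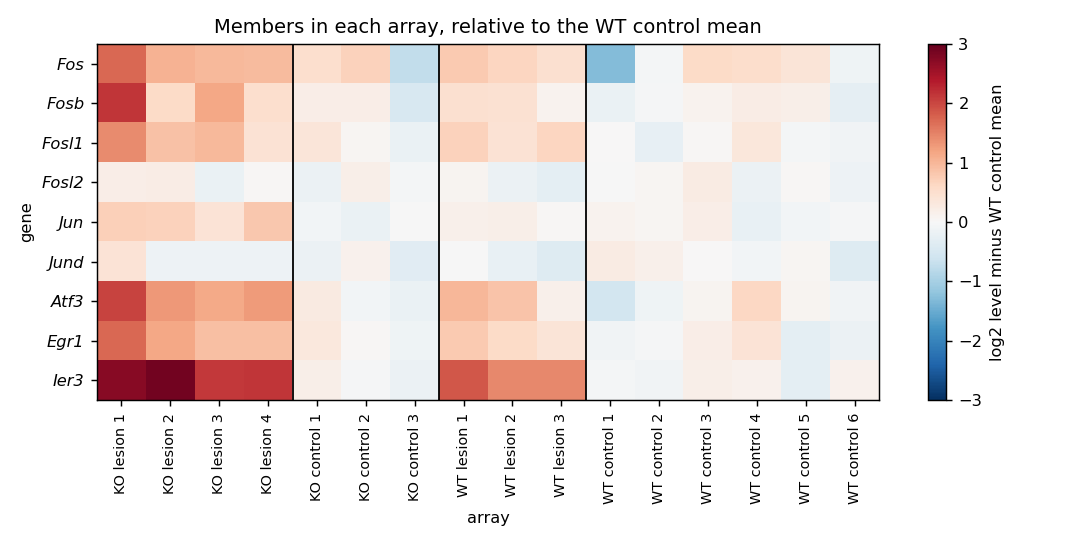
Log2 level minus the WT control mean for the 9 genes (rows) in every array (columns, with KO lesions, KO controls, WT lesions and WT controls from left to right). KO lesion 1 has the highest level of Fos, Fosb, Fosl1, Jund, Atf3 and Egr1, and the low Fos values of WT control 1 and KO control 3 stand out.

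Among samples, Fos was related to several other members, but the share of all genes related to it as closely was not counted. Of 16 relations of Fos with the 8 other genes (exact permutation tests, Benjamini-Hochberg over the 16), 2 passed by Pearson's r across the 9 control-diet arrays and 7 across the 7 lesions. On the control diet Fosb followed Fos (Pearson r = 0.839, adjusted p = 0.0276; Spearman rho = 0.767, adjusted p = 0.0685), and r was 0.896 without the 2 arrays farthest from the Fos median. Atf3 also did (r = 0.766, adjusted p = 0.0379; rho = 0.717, adjusted p = 0.0983), but its r was 0.468 without those 2 arrays, so it rests on them. Jun did not follow Fos there (r = -0.469, adjusted p = 0.247; rho = -0.433, adjusted p = 0.286).

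Across the 7 lesions Egr1 followed Fos most closely (r = 0.988, adjusted p = 0.00635; rho = 0.964, adjusted p = 0.0148), with r = 0.943 without the 2 farthest arrays. Atf3 was next (r = 0.953, adjusted p = 0.00635; rho = 0.964, adjusted p = 0.0148), with 0.951 without them. Fosb had r = 0.930 (adjusted p = 0.0233; rho = 0.964, adjusted p = 0.0148) but 0.453 without them, and Jund had r = 0.905 (adjusted p = 0.0395; rho = 0.750, adjusted p = 0.118) but -0.04 without them, so both rest on them. Ier3 had r = 0.820 (adjusted p = 0.0311; rho = 0.893, adjusted p = 0.0492) and 0.917 without them. Jun had r = 0.747 (adjusted p = 0.0452; rho = 0.750, adjusted p = 0.118) and 0.814 without them, and Fosl1 r = 0.829 (adjusted p = 0.0459; rho = 0.714, adjusted p = 0.118) and 0.590 without them. Since the lesions hold 2 genotypes that differ in level, group means were also subtracted. Then Egr1 (r = 0.975), Jund (0.976), Fosb (0.902) and Atf3 (0.900) still passed by Pearson's r, while Jun (0.317), Ier3 (0.573) and Fosl1 (0.774) did not. By Spearman's rho only Egr1 passed (rho = 0.964, adjusted p = 0.0444), and Jund, Fosb and Atf3 each had adjusted p = 0.118. Without the 2 arrays then farthest, r was 0.842 for Egr1, 0.835 for Jund, 0.487 for Fosb and 0.720 for Atf3. After this subtraction the permutation p is approximate. Among the 6 control-diet arrays of the higher number series no relation passed.

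As a description, over 16 arrays with group means subtracted, the genes most like Fos were Dusp6 (r = 0.895), an ERK phosphatase, Snx3 (0.870), Pvr (0.866), Acot6 (0.864) and Ube2j1 (0.862). Members were left out of this ranking, and by the same measure they ran from -0.258 for Jun to 0.721 for Atf3. The Acot6 means, 4.10 to 4.41, lay below the array medians in every group, so its likeness rests on values near background. Dusp6 itself had a mean of 9.45 in KO lesions, 8.87 in KO controls, 9.002 in WT lesions and 8.63 in WT controls. Over the 16 levels as deposited, the genes most like Fosl1 were Hs3st1 (0.957), Prrg4 (0.956), Tnfrsf12a (0.950), the TWEAK receptor, Nt5c1a (0.949) and Epha2 (0.948), an ephrin receptor. These last values include the difference between lesions and controls.

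The other genes of the pathway were read from lists, counted over the genes with a row of their own. By the same rule 8.96% of all genes rose and 12.1% fell in KO lesions, with a median of 0.01. In WT lesions 6.96% of all genes rose and 8.35% fell, with a median of -0.06. Among 30 other immediate early genes, 15 rose and 1 fell in KO lesions, and 4 rose and 1 fell in WT lesions (medians of 0.46 and 0.11). Ccn1, which encodes a matricellular protein, rose 6.87-fold in KO and 2.70-fold in WT, and Phlda1 rose by log2 1.85 and 1.50 and the kinase Pim1 by 1.64 and 1.10. Sgk1, a kinase induced by glucocorticoids and mineralocorticoids, fell by 1.10 and 1.59. Without KO lesion 1, 13 rose and 2 fell in KO.

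Of the upstream genes, 7 of 19 MAP kinase and SRF/ELK genes rose and 2 fell in KO lesions, and 2 rose and 2 fell in WT lesions, with medians of 0.07 and 0.08. The WT counts and the KO falls of this list were near the shares over all genes. Without KO lesion 1, 6 rose and 1 fell in KO, with a median of 0.13. The SRF partner Elk3 rose by 1.25 in KO and 0.83 in WT, and Map2k4, a kinase of JNK, by 0.90 and 0.75. Map2k6, a kinase of p38, fell by 1.44 and 1.09. Of 9 genes for EGF receptor ligands and receptors, 4 rose and 1 fell in KO lesions, and 3 rose and 1 fell in WT lesions. The KO median of 0.87 was 0.57 without KO lesion 1. Epiregulin (Ereg) rose by 2.61 and 2.17, Egfr by 1.39 and 0.86 and betacellulin (Btc) by 1.24 and 0.92, while Egf fell by 0.56 and 0.67. Hbegf rose by 1.49 in KO and differed by 0.88 in WT (adjusted p = 0.0775).

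Of the genes that restrain the pathway, 8 of 19 rose and 1 fell in KO lesions, and 4 rose and 1 fell in WT lesions (medians of 0.31 and 0.20). Dusp1, a phosphatase that switches off p38 and JNK, was 4.99-fold higher in KO lesions and 2.28-fold higher in WT lesions than in their controls. Dusp5, a nuclear ERK phosphatase, rose by 1.47 in KO and was 0.44 in WT (adjusted p = 0.270), Dusp4 rose by 1.09 and 0.70 and Spry4, an inhibitor of receptor tyrosine kinase signalling, by 0.88 and 0.86. The KO call of Spry4 ended without KO lesion 1 (0.69, adjusted p = 0.0743). Tsc22d3 (GILZ), a glucocorticoid-induced protein that binds AP-1, fell by 0.49 and 0.70. Of 16 other leucine zipper partners, 5 rose and 1 fell in KO lesions, and 4 rose and 1 fell in WT lesions. These included Batf2 (1.96 and 1.73), Cebpb (0.72 and 0.47), Crem (0.57 and 0.38) and Jdp2, a repressor in AP-1 dimers (0.73 in KO, and 0.21 in WT with adjusted p = 0.190), while Nfe2l2, the oxidative stress factor NRF2, fell by 0.35 and 0.46. The control means of Crem lay just below the array medians, and RMA compresses differences near background, so its differences may be too small. Without KO lesion 1, 4 of the 16 rose in KO and none fell by the test, Nfe2l2 differing by -0.33 (adjusted p = 0.0717).

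Among 19 genes known as AP-1 targets, 18 rose in each genotype, with medians of 2.19 in KO and 1.55 in WT, and Odc1, the first enzyme of polyamine synthesis, fell by 0.78 in KO. This list was chosen with earlier results of these data known, so its counts are no independent evidence of AP-1 activity. The collagenase Mmp13 had a mean of 12.23 in KO lesions, 4.86 in KO controls, 11.43 in WT lesions and 4.88 in WT controls. Because these control means lay below the array medians, its differences of 7.37 in KO and 6.55 in WT may be too small. The stromelysin Mmp10, with control means likewise below the array medians, was 6.45 and 5.54 higher. Ptgs2, the inducible cyclooxygenase, rose by 6.21 in KO and 5.26 in WT. Mmp3, with control means also below the array medians, differed by 3.50 and 2.83. Without KO lesion 1, 17 of the 19 rose in KO and none fell by the test, Odc1 differing by -0.74 (adjusted p = 0.0504). In limma none of the 112 genes of these 6 lists passed between the lesions of KO and WT, on the control diet or in the interaction, while 40, 0 and 29 had an unadjusted p under 0.05. Of all genes tested, 13.4%, 2.1% and 11.1% did.

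**Figure D4:**
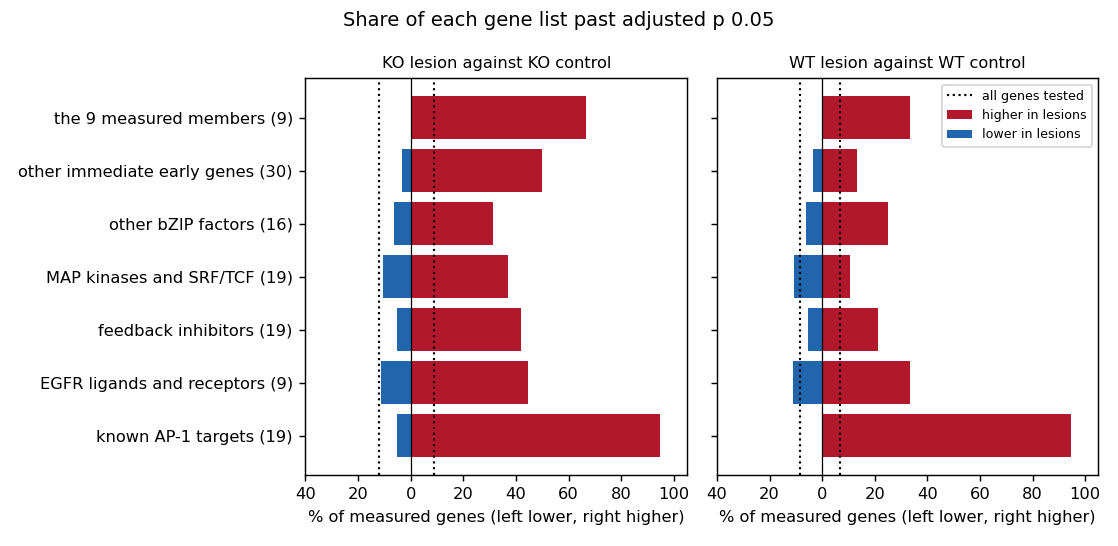
Percent of the measured genes of each list (number in brackets) that were higher (right) or lower (left) in lesions at adjusted p under 0.05, for KO lesions against KO controls and for WT lesions against WT controls. Dotted lines give the percent of all genes tested, and the known AP-1 targets have the largest share higher in both genotypes. The lists were chosen with earlier results of these data known.

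Markers of cell types moved with the lesions. Of all genes tested, 8.96% rose and 12.1% fell in KO lesions, and 6.96% rose and 8.35% fell in WT lesions. In KO and in WT lesions, 7 and 6 of 10 neutrophil markers, 10 and 9 of 10 macrophage markers, 7 and 7 of 8 fibroblast markers, 4 and 4 of 5 T cell markers, 3 and 2 of 7 endothelial markers, 1 and 0 of 5 B and plasma cell markers and 1 and 1 of 5 enteric neuron and glia markers rose, and none of them fell. Of 7 epithelial markers 4 rose in KO and none in WT, with list means of 11.50 to 11.80 in KO lesions, 11.26 to 11.38 in KO controls, 11.47 to 11.57 in WT lesions and 11.28 to 11.42 in WT controls. Goblet cell markers fell in 6 and 4 of 7 cases, absorptive colonocyte markers in 2 and 5 of 8, with 1 higher in each, and none of 7 smooth muscle markers passed. Which cells carried the AP-1 transcripts was not measured, and the part of cell composition in the differences was not tested.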

How the data were processed

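The authors deposited log2 values from RMA, run in Affymetrix Power Tools 1.16.1, both per the submitters' processing notes. RMA subtracts background, makes the arrays' distributions equal and combines the probes of a row, and it compresses differences near background. Genome build and annotation: not given in the sources used here. Of 72688 rows in 16 arrays, 31221 were paired with 1 gene symbol, 1529 with several and 39938 were not listed. The 827 outdated symbols were updated, and the row of highest mean was kept per gene, which left 30748 genes.

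One limma fit (limma 3.58.1 in R 4.3.3) of 4 group means, with empirical Bayes moderation and 2-sided tests, gave the contrasts, adjusted by Benjamini-Hochberg over all genes at a threshold of 0.05. Relations among arrays used exact permutation tests over all pairings, computed with numpy 2.4.6, with ranks from scipy 1.17.1. The procedure was checked on simulated data. No array pair within a group was a copy: at most 0.0289% of values were identical, and within-group correlations of array pairs over all rows lay between 0.980 and 0.992. The number of arrays limits the precision.

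Groups came from the titles. Replicate numbers were taken as pairing lesions of KO and WT, since every pair passed a minimum r of 0.1: deviations of same-numbered arrays from their group means correlated between 0.296 and 0.540 in all 3 pairs, and each of the 6 arrays was closest to its own number; this comes from the data, since no label states a pairing. The alternatives were the replicate block, leaving out each array, a filter on dim genes, the mean of a gene's rows, array medians subtracted, an intensity trend, array weights, fits on 2 groups, and the number series as a covariate, block or subset. The members, gene lists and tests were chosen with earlier results of these data known. Named genes were the members, up to 4 called examples per list with the largest mean change over both responses, and the 5 genes most like Fos and Fosl1; Egf, Tsc22d3, Nfe2l2, Odc1, Ret and the 3 neutrophil genes were named after their values were seen.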

Additional observations from a re-analysis of the deposited data

Results flagged for a closer look

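In 6 of 88 gene-by-group sets tested (44 genes in the groups of 4 and 6 arrays), 1 array lay far from the others by Dixon's test, where chance gives about 1 in 20. KO lesion 1 was the highest of the 4 KO lesions for Fos (10.77), Jund (9.26), Map2k3, a kinase of p38 (10.09), and Egfr (10.47). The other KO lesions were between 10.00 and 10.10 for Fos and at 8.70 for Jund. Mmp10, a stromelysin, was highest in KO lesion 2 (11.81), against a group median of 10.93. Hs3st1, a heparan sulfate sulfotransferase and one of the genes most like Fosl1, was highest in WT control 4 (6.68), where the next WT control was at 6.33.

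KO lesion 1 had the lowest mean correlation with its own group of all 16 arrays, 0.985 over the genes tested. Without it the same number of members, 6, rose in KO lesions, with a median of 0.77. Of all 30748 genes, 2354 then rose and 2993 fell.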

How the results depend on the processing

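Of the 9 members, the number that rose in WT lesions (3) was between 1 and 4 when single arrays were left out. In KO lesions (6) it was 5 or 6. Between the lesions of KO and WT (1), it was 0 with the replicate block, with array medians subtracted, with an intensity trend and robust prior, and with only the 2 groups fitted, 2 without dim genes and with array weights, and 0 to 2 without single arrays. The interaction (0) had 0 to 2 without single arrays, the 2 without KO lesion 3, where 510 of all 30748 genes passed. By Pearson's r, the number of genes that followed Fos was 0 in the higher number series (2 on the control diet). It was 4 with group means subtracted in lesions (7). The causes were not tested.

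With the replicate block, Jun differed by 0.49 between the lesions (adjusted p = 0.25), and in KO lesions Fosb (1.32, adjusted p = 0.115) and Jun (0.71, adjusted p = 0.0712) did not pass, which left 4 members and 856 genes, against 6464 without the block. In WT lesions Egr1 (0.57, adjusted p = 0.0554) did not pass and Jund did (-0.34, adjusted p = 0.0381). The same arrays without the block, those of the lower series, gave the same differences. There Egr1 passed (adjusted p = 0.0250) and Jund did not (adjusted p = 0.117). Same-numbered arrays correlated from -0.300 to -0.145 in the KO response, from 0.0971 to 0.347 in the WT response and from -0.336 to -0.242 on the control diet, and 0, 6 and 0 of 6 arrays were closest to their own number. By the minimum r of 0.1 in every pair none of these was taken as paired. The WT response missed it by 1 pair at 0.0971, and its 6 of 6 arrays are a hint of pairing from the data, so its blocked values above bear on the Egr1 call. In the block fit, with its fewer arrays, Fosb (0.0226) and Atf3 (0.19) reversed on the control diet.

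Adding the series of the numbers as a term left 2507 genes that passed in KO lesions, and Fosl2 (-0.11) and Jund (-0.15) reversed there. On the control diet Fos (-0.11), Fosl2 (0.0754) and Jun (0.0121) reversed with the covariate and in the higher series alone, and Fosb (0.0629), Atf3 (0.00942) and Ier3 (0.0447) with array weights. The relation of Fos with Jund on the control diet turned to 0.0224 with group means subtracted and 0.804 in the higher series. None of these reversed values passed. Without single arrays the values ran from -0.0261 to 0.24 for Jund in KO lesions, and from -0.0751 to 0.65 for the Fos interaction. On the control diet they ran from -0.12 to 0.61 for Fos, -0.14 to 0.20 for Fosb, -0.0772 to 0.20 for Fosl1, -0.12 to 0.0580 for Fosl2, -0.14 to 0.12 for Atf3, -0.0369 to 0.19 for Egr1 and -0.11 to 0.0726 for Ier3.

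Between the lesions, the genes passing (94) were 26 with array medians subtracted, 712 with array weights, 1 with only the 2 groups fitted, 0 with the block, 58 with the covariate and 4 to 1691 without single arrays. With array medians subtracted, 2348 genes were higher and 1737 lower in WT lesions, against 2140 and 2568 in the values as deposited.

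The counts of the lists without KO lesion 1 were added after the data were seen.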
